A study of Xenopus laevis with 27 samples.

Results

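The blastema, the tissue that forms on an amputation surface, was compared between adult Xenopus laevis frogs that wore a progesterone-loaded device on the amputated hindlimb and frogs that wore none. The comparison rests on 6 of the 27 RNA-seq libraries of the series, chosen by their labels: 3 blastema libraries labelled progesterone treatment and 3 without a device. The series as a whole crossed 3 treatments (progesterone, silk and no device) with 3 tissues (blastema, stump and brain), with 3 libraries per combination. The silk group is known from the study to have worn the device with its silk gel and no hormone. In a comparison of progesterone with no device the hormone and the device therefore cannot be told apart, and silk values are set beside the main ones for reference. The labels give no genotype, frog strain, age, dose, length of wear or time of sampling, and do not say whether the 3 libraries of a group came from separate animals, so a p-value here measures the spread between libraries, which may be technical.

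In vertebrates that regrow limbs, a blastema is a mound of proliferating mesenchyme under a wound epidermis, and adult Xenopus forms a modest one from which it regrows a cartilage spike with little or no muscle. Progesterone acts through a nuclear receptor encoded by pgr and through membrane receptors, and it can act on nerve, immune and muscle cells. Xenopus laevis carries many genes in 2 homeologous copies, which the gene names mark with .L and .S.

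Levels are given as FPKM, read fragments scaled to gene length and library size, so that levels can be compared between genes. The estimated depth was 671762, 405108 and 548841 reads in no-device 1, 2 and 3 and 953832, 178418 and 813098 in progesterone 1, 2 and 3. In a gene of 1 kb, 1 read was then worth 1.49 to 2.47 FPKM without a device, 1.05 and 1.23 FPKM in progesterone 1 and 3, and 5.6 FPKM in progesterone 2. Progesterone 1 and 3 were nearly the same library: they differed beyond sampling noise at 62 of 12499 genes (0.496%), against 6.64% to 8.95% for pairs of no-device libraries and 27.1% and 32.1% for progesterone 2 against these libraries. Their mean stands for 1 sample here, which leaves n = 2 for progesterone against n = 3 without a device. Progesterone 2 stood apart. A single gene model, smad4.1.S, took 25.6% of its reads, against 2.01% and 4% in progesterone 1 and 3 and 0.518% to 1.1% without a device. Some genes that every cell uses, such as rpl35.L of the large ribosomal subunit, were listed at 0 in progesterone 2. Others of that subunit were not, such as LOC108708398 (rpl31.L in RefSeq) at 195 FPKM. Results are therefore given for both progesterone samples and for each alone.

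Of 37270 genes tested with limma on log2(FPKM + 1), 0 passed a Benjamini-Hochberg adjusted p under 0.05, which is 0% of the genes tested. At an unadjusted p under 0.05 there were 852 genes lower (2.29%) and 526 higher (1.41%). The description used below is whether both progesterone samples lay outside the range of the 3 no-device samples: 4170 tested genes (11.2%) lay below that range in both and 2471 (6.63%) lay above it. The median difference over all tested genes was −0.02, on the log2(FPKM + 1) scale used for every difference here, and 0.05 after median-of-ratios scaling. No gene named below passed the adjusted test in this fit. Most named members of lists were picked because both progesterone samples lay outside the no-device range. Their separation therefore follows from the choice and is no test. In limma a gene model of klhl40.S came closest, with an adjusted p of 0.288. Of the 42504 genes in the table, 5234 were too low to be tested.

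**Figure D1:**
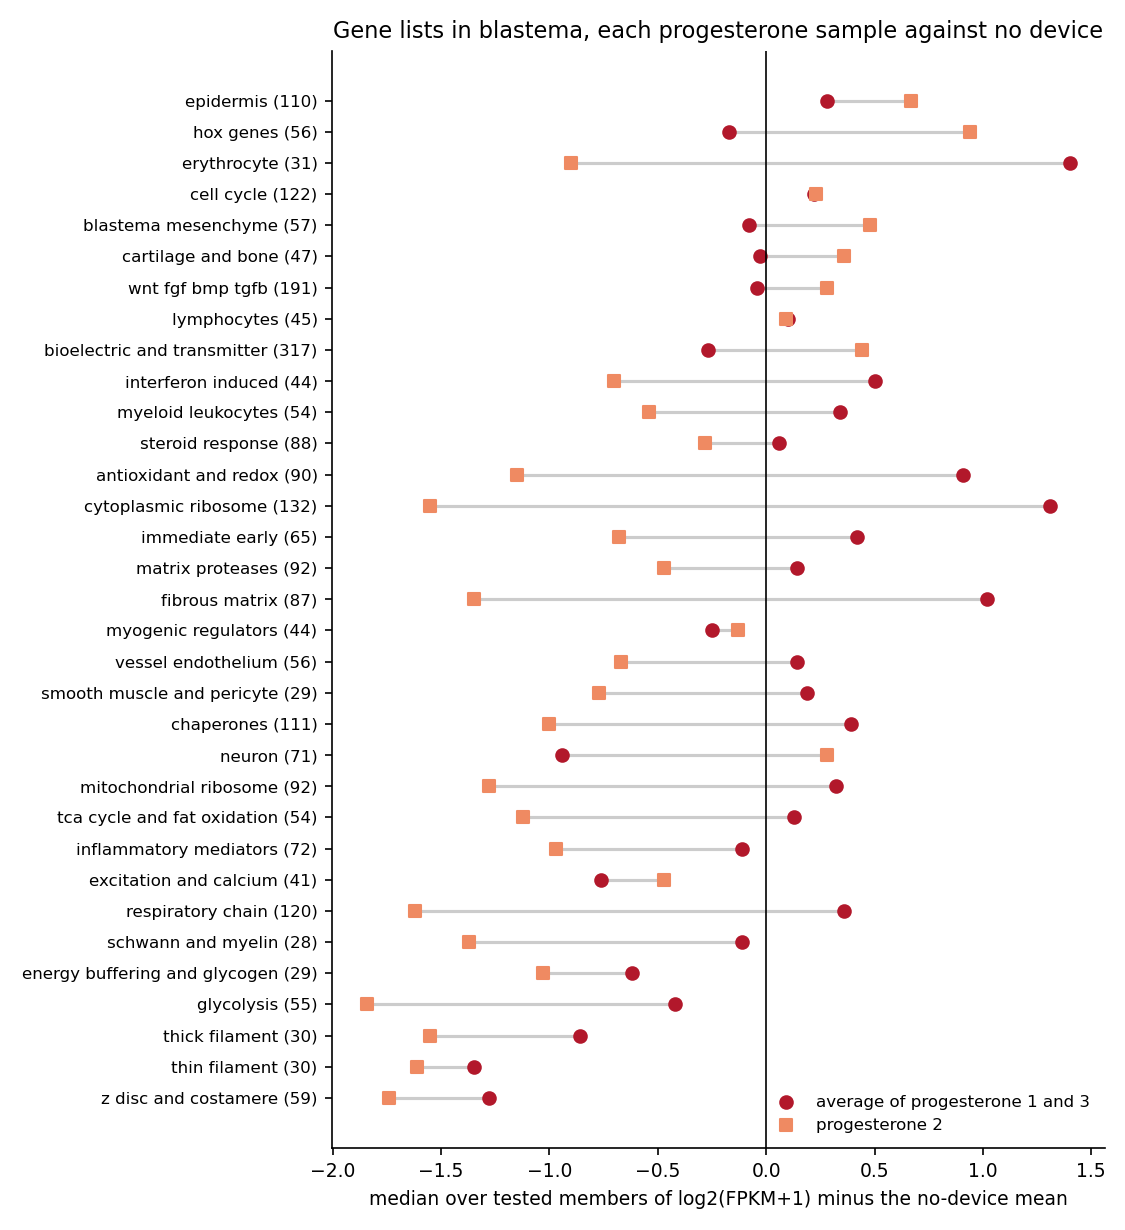
Median difference from the no-device mean, in log2(FPKM + 1), over the tested members of 33 gene lists, with the number of tested members in brackets. Circles are the average of progesterone 1 and 3 and squares are progesterone 2. The lists of thick filament, thin filament and Z-disc genes are negative in both samples (−0.86, −1.35 and −1.28 against −1.55, −1.61 and −1.74), whereas ribosomal, erythrocyte and fibrous matrix lists are positive in one and negative in the other.

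Many genes of the muscle contractile apparatus were at lower levels in both progesterone samples. The lists of thick filaments, thin filaments, Z-discs with costameres, and excitation with calcium handling hold 169 genes, of which 160 passed the filter on low values. Of these 160, 86 (53.8%) lay below every no-device sample in both progesterone samples and 1 lay above, with a median difference of −1.37. The background for the first count is 11.2%. The median was −1.07 without progesterone 2. There the average of progesterone 1 and 3 lay below every no-device sample for 109 of the 160 members (against 24.9% of all tested genes). It lay above for 3 of the 160 (against 20.1%). With progesterone 2 alone the median was −1.37, and 99 of the 160 members lay below (against 30.2%) and 31 of the 160 above (against 38.2%). Where the estimated reads averaged at least 20 per sample, 59 of 69 members lay below in both samples, against 21.6% of 3843 such genes, and 0 lay above, against 2.86%. This average includes the no-device samples, so a gene can pass on its no-device reads alone. A klhl40.S model passed with 3, 3 and 0 reads in progesterone 1, 3 and 2 and 91, 81 and 60 in no-device 1 to 3. The filtered share is therefore no separate support for lower levels.

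The same genes took 3.94% to 6.74% of the estimated reads outside smad4.1.S in the no-device libraries and 1.39%, 1.36% and 1.27% in progesterone 1, 3 and 2. The silk libraries held 0.64%, 0.632% and 1.3%. The progesterone libraries thus lay below every no-device library and, except for silk 3 against progesterone 2, above the silk libraries. In bulk tissue fewer muscle fibres and less RNA per fibre cannot be told apart.

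The Z-disc and costamere genes, which anchor the sarcomere and tie it to the membrane, had the largest share of members below every no-device sample among these 4 lists, at 36 of 59 (61%), with 0 above. The actin-binding repeat gene xirp1.L, whose product sits at myotendinous junctions and at sites of muscle remodelling, was at 253, 249 and 245 FPKM in no-device 1 to 3, at 16.3 and 12.9 in progesterone 1 and 3 and at 12.9 in progesterone 2. Its other copy, LOC108719658 (xirp1.S in RefSeq), was at 145, 147 and 134 FPKM without a device, at 4.39 and 3.71 in progesterone 1 and 3 and at 3.37 in progesterone 2. For both copies the libraries of a group were close together and the groups were far apart. The differences were −4.08 ± 0.89 (SE) for xirp1.L and −4.92 ± 0.82 for xirp1.S, the latter with an adjusted p of 0.548 in limma.

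The kelch-repeat protein encoded by klhl40 stabilises thin filament proteins. One gene model named klhl40.S was at 336, 500.4 and 272 FPKM without a device, at 7.87 and 9.21 in progesterone 1 and 3, and was listed at 0 in progesterone 2. A further model of the same name was at 219, 310.4 and 179.8 FPKM and at 19.0, 13.9 and 19.4 in progesterone 1, 3 and 2. The copy klhl40.L was at 76.9, 76.8 and 73.1 FPKM and at 5.69, 7.82 and 4.34 in the same order. All 3 models were therefore lower in every progesterone library, by −6.86 ± 0.95, −3.62 ± 0.88 and −3.57 ± 0.84. The first value rests in part on the listed 0: without progesterone 2 it was −5.23. Near-identical models share short reads, so the split between the klhl40.S models is uncertain.

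Filament genes were lower too. Skeletal alpha-actin, from acta1.L, was at 3683, 3700.3 and 1188 FPKM in no-device 1 to 3, at 363 and 367 in progesterone 1 and 3 and at 210.1 in progesterone 2 (−3.19 ± 0.74). The essential myosin light chain gene myl1.S was at 3413, 2599.5 and 1309 FPKM without a device, at 362 and 399 in progesterone 1 and 3 and at 175 in progesterone 2 (−3.13 ± 0.75). The tropomyosin gene tpm1.L was at 1969.6, 1516 and 1158 FPKM and at 318, 305 and 148 (−2.81 ± 0.65). For these genes no-device 3 was the lowest of its group and still above every progesterone library. In counts, 17 of 30 thin filament members and 13 of 30 thick filament members lay below every no-device sample, and 0 and 1 lay above.

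Excitation and calcium handling genes, which release calcium and pump it back, had 20 of 41 tested members below and 0 above. Parvalbumin, which binds calcium in fast fibres, stood at 2157, 3522 and 1514 FPKM for the copy pvalb.1.S without a device, and at 302, 278 and 202 in progesterone 1, 3 and 2 (−3.21 ± 0.72). The calcium pump of the fast-fibre reticulum, LOC108704734 (atp2a1.L in RefSeq), was at 984, 941 and 503 FPKM and at 139, 136 and 107 (−2.66 ± 0.67). The product of the Ras-related gene rrad.L, which is on no list here, restrains the L-type calcium channel in mammals. This gene was at 69.4, 86.8 and 88.0 FPKM and at 5.65, 7.44 and 3.75 (−3.77 ± 0.64, adjusted p = 0.578 in limma). No library of one group reached the other in any of the 3, of which pvalb.1.S and atp2a1.L were picked for lying outside the no-device range.

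**Figure D2:**
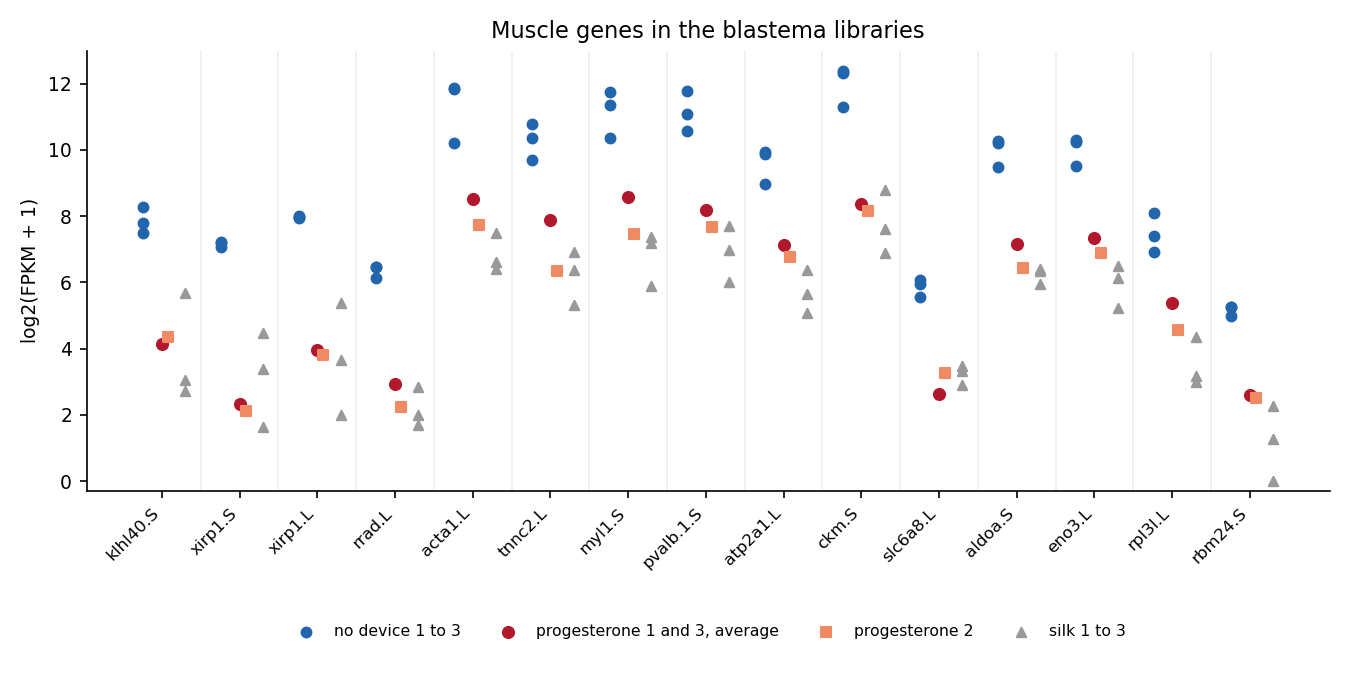
Expression of 15 muscle genes, in log2(FPKM + 1), in each blastema sample. Blue circles are the 3 no-device libraries, the red circle is the average of progesterone 1 and 3, the orange square is progesterone 2 and grey triangles are the 3 silk libraries. The klhl40.S model shown is the one detected in every library. Both progesterone samples lie below every no-device library for each gene, for example acta1.L at 365 and 210.1 FPKM against 1188 to 3700.3. Most of these genes were picked for lying outside the no-device range, so this separation follows from the choice.

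Homeologous copies were compared because each copy is a separate gene model. Of 49 contractile pairs with both copies tested, 40 had negative differences in both copies and 1 had positive differences in both. In 21 pairs (42.9%) both copies lay below every no-device sample in both progesterone samples, against 3.78% of 6642 such pairs over all genes.

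Some enzymes that feed contraction were at lower levels in both samples as well. Creatine kinase, which regenerates ATP from phosphocreatine, was at 5121, 5310.1 and 2536 FPKM for ckm.S without a device, at 322 and 338 in progesterone 1 and 3 and at 282 in progesterone 2 (−3.74 ± 0.73). The creatine transporter gene LOC108704805 (slc6a8.L in RefSeq), which is on no list here, was at 66.0, 61.2 and 46.6 FPKM and at 6.66, 3.82 and 8.68 (−2.91 ± 0.61). In the energy buffering and glycogen list 10 of 29 tested members lay below every no-device sample (34.5%, against 11.2%) and 2 above. The citric acid cycle and fat oxidation list had 4 of 54 members below (7.41%) and 1 above, with medians of 0.13 without progesterone 2 and −1.12 with progesterone 2 alone. The respiratory chain list had 16 of 120 below (13.3%) and 9 above, and its medians in the progesterone samples also differed in sign.

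Glycolysis had 24 of 55 tested members below (43.6%, against 11.2%) and 2 above (3.64%, against 6.63%), with a median of −1.14. Where reads averaged at least 20, 21 of 32 members lay below, against 21.6% of such genes, and 0 above, against 2.86%. Here too a gene can pass the read filter on its no-device reads, so this share is no separate support. The median was −0.42 without progesterone 2 and −1.84 with progesterone 2 alone, so progesterone 2 decides its size. Without progesterone 2, 27 of the 55 members lay below (against 24.9% of all tested genes) and 10 of the 55 above (against 20.1%). The 24 include forms enriched in muscle: aldolase A (aldoa.S) was at 1188, 1240.2 and 711 FPKM without a device and at 154, 132 and 85.5 in progesterone 1, 3 and 2 (−3.19 ± 0.62), and the muscle enolase eno3.L was at 1252, 1209 and 724 FPKM and at 145, 178 and 118 (−2.89 ± 0.66). The phosphoglycerate mutase pgam2.L (−2.38 ± 0.63) and gapdh.S (−2.70 ± 0.74) were low in both samples too. In 8 of 22 homeolog pairs of glycolysis (36.4%, against 3.78% of such pairs over all genes) both copies lay below every no-device sample.

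Among ribosomal protein genes, the muscle paralogs stood apart. The paralogs rpl3l.L and rpl3l.S, which replace a ubiquitous subunit in striated muscle of mammals, were the 2 members of 132 tested that lay below every no-device sample in both progesterone samples (2 of 132, or 1.52%, against 11.2% of all tested genes). The gene rpl3l.L was at 166, 269.8 and 119.8 FPKM without a device and at 33.6, 47.2 and 22.4 in progesterone 1, 3 and 2 (−2.50 ± 0.70). Most of the remaining ribosomal genes went in opposite directions in the progesterone samples, as described further on.

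In the list of myogenic regulators 12 of 44 tested members lay below every no-device sample (27.3%, against 11.2%) and 2 above (4.55%, against 6.63%). The list median was −0.24. The RNA-binding splicing regulator rbm24.S (−2.61 ± 0.74), the laminin receptor subunit itga7.L (−2.21 ± 0.72), the transcription factor mef2c.L (−1.32 ± 0.63) and the late myogenic factor myf6.S (−1.53 ± 0.84) lay below. Without progesterone 2, itga7.L was at −1.30. The determination factor myod1.L was at 16.5, 20.2 and 8.1 FPKM without a device and at 10.9, 13.7 and 16.6 in progesterone 1, 3 and 2. Its copy myod1.S was at 39.95, 28.1 and 11.6 FPKM and at 13.4, 12.2 and 11.9. The myogenin gene myog.L was at 13.4, 17.0 and 9.19 FPKM and at 0.79, 0 and 12.8, so its progesterone samples differed. The satellite cell factor pax7.L was at 3.0, 2.54 and 4.63 FPKM and at 0.74, 1.21 and 3.29. Each of these genes overlapped between the groups, and at a few reads per library a difference in pax7.L was not detectable at this depth.

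Some chaperones that guard the sarcomere were low in both samples. The small heat shock gene hspb7.L (−2.70 ± 0.70), hspb8.S (−2.03 ± 0.87) and the co-chaperone bag3.L (−1.96 ± 0.73) lay below every no-device sample. In the whole list 15 of 111 tested members lay below (13.5%, against 11.2%) and 4 above (3.6%, against 6.63%). The list median differed in sign, at 0.39 without progesterone 2 and −1.0 with progesterone 2 alone. Without progesterone 2, 59 of the 111 members lay above (against 20.1% of all tested genes) and 20 of the 111 below (against 24.9%). Further genes with the smallest unadjusted p values among lower genes belonged to no list: the cold shock domain gene ybx3.L was at 629.6, 527 and 269 FPKM without a device and at 43.1, 40.2 and 29.2 in progesterone 1, 3 and 2 (−3.64 ± 0.79), fam102a.L differed by −3.74 ± 0.71 and the deubiquitinase gene otud1.L by −3.12 ± 0.67.

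Over the endothelial list 13 of 56 tested members lay below every no-device sample in both progesterone samples (23.2%, against 11.2%) and 5 above (8.93%, against 6.63%). The list median was 0.14 without progesterone 2 and −0.67 with progesterone 2 alone. Without progesterone 2, 24 of the 56 members lay above (against 20.1% of all tested genes) and 17 of the 56 below (against 24.9%). Both of these shares exceeded the background. The gene vegfa.S, for the main endothelial growth factor, was at 45.6, 45.6 and 47.6 FPKM without a device, at 16.1 and 9.17 in progesterone 1 and 3 and at 10.9 in progesterone 2 (−1.89 ± 0.64). Its copy vegfa.L, named after its values were seen, was at 40.2, 44.0 and 47.4 FPKM and at 16.7, 20.5 and 20.7 (−1.12 ± 1.23). In both copies the no-device libraries were close together and above every progesterone library, and the larger error of vegfa.L comes with silk libraries that ran from 0 to 37.4 FPKM and share the estimate of spread. Its receptor gene kdr.L differed by −1.83 ± 0.68, and by −1.07 without progesterone 2. The apelin gene apln.S, for a peptide of sprouting vessels, was listed at 0 in all 3 progesterone and all 3 silk libraries and at 19.8, 31.1 and 8.09 FPKM without a device, which is 3, 3 and 1 estimated reads, so few reads lie behind it. The apelin receptor gene aplnr.S, named after its values were seen, was at 119 and 132 FPKM in progesterone 1 and 3. It was at 10.4 in progesterone 2 and at 15.6 to 42.4 without a device.

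Matrix protease genes showed 12 of 92 tested members below every no-device sample and 6 above, near the background. At an unadjusted p under 0.05 in limma 3 of the 92 members were lower (against 2.29% of all tested genes) and 4 of the 92 higher (against 1.41%). The genes named next lay below every no-device sample. No member above the no-device range met the rule for named genes, which asks for a group mean of at least 10 FPKM. The names therefore show just 1 side of this list. The versican-cleaving protease gene LOC108713592 (adamts9.L in RefSeq) was at 18.6, 20.2 and 26.3 FPKM without a device and at 4.97, 4.21 and 0.91 in progesterone 1, 3 and 2 (−2.78 ± 0.85). The aggrecan-cleaving protease gene adamts5.S differed by −1.68 ± 0.81, with an unadjusted p of 0.0642 in limma, and mmp19.L by −2.07 ± 0.89.

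Of 71 tested neuron genes 8 lay below every no-device sample in both progesterone samples (11.3%, near the background of 11.2%) and 0 above. Their median was −0.94 in the average of progesterone 1 and 3 and 0.28 in progesterone 2. Schwann cell and myelin genes had 5 of 28 tested members below (17.9%) and 1 above, with medians of −0.11 in that average and −1.37 in progesterone 2, so the low sample was not the same for both lists. The cell adhesion gene l1cam.S was at 17.4, 5.35 and 9.41 FPKM without a device and at 3.47, 1.74 and 1.47 in progesterone 1, 3 and 2 (−1.84 ± 0.66). No-device 2 was the lowest of its group and still above every progesterone library. Of 317 tested channel and transmitter genes 31 lay below (9.78%, under the background) and 10 above. Among them the sodium-activated potassium channel gene LOC108698853 (kcnt1.L in RefSeq) was at 23.4, 20.4 and 17.5 FPKM and at 4.98, 1.89 and 5.89 (−1.95 ± 0.60).

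Epidermal genes had the largest share of the 33 lists above the no-device range in both progesterone samples: 23 of 110 tested (20.9%, against 6.63% of all tested genes), with 3 below and a median of 0.48. The median was positive in each sample alone, at 0.28 without progesterone 2 and 0.67 with progesterone 2 alone. The keratin gene LOC108701755 (krt53.L in RefSeq) was at 5.22, 3.49 and 2.56 FPKM without a device, at 57.8 and 63.3 in progesterone 1 and 3 and at 42.3 in progesterone 2 (3.48 ± 0.92). The keratin genes krt5.1.L (3.41 ± 1.11), krt6.L (2.35 ± 0.70) and LOC397864, or krt57.L (2.22 ± 0.68), were above in both samples too. So were the tight junction gene cldn4.S (2.79 ± 0.88) and the epithelial adhesion gene epcam.S (2.36 ± 1.01). These are low genes, with 11 estimated reads of krt53.L in progesterone 2 and 2 to 5 in the no-device libraries, and just 8 of the 110 members had 20 reads on average. Of these 8, 2 lay above (against 2.86% of all genes with 20 reads on average) and 0 below (against 21.6%), with a median of 0.06. In the silk libraries krt53.L ran from 2.37 to 29.1 FPKM.

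**Figure D3:**
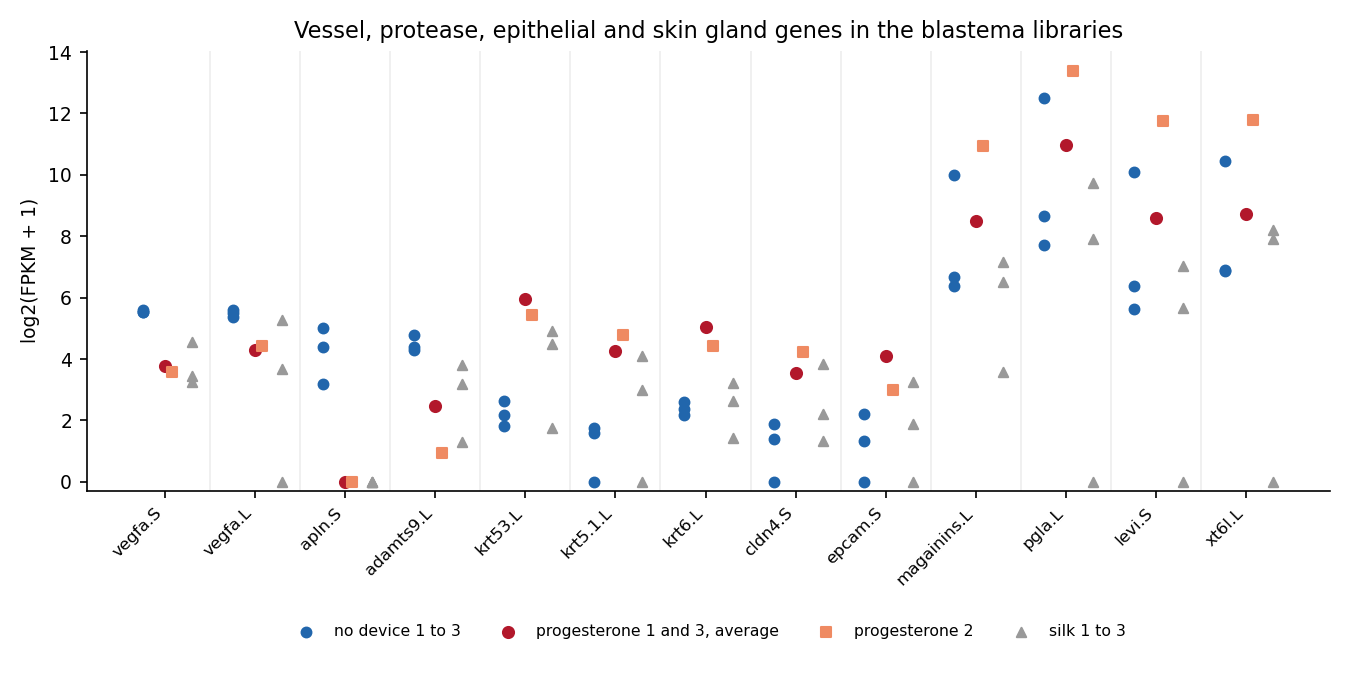
Expression of vessel, protease, epithelial and skin gland genes, in log2(FPKM + 1), in each blastema sample, with colours and symbols for no device (blue circles), the average of progesterone 1 and 3 (red circle), progesterone 2 (orange square) and silk (grey triangles). The keratin krt53.L sits at 60.5 and 42.3 FPKM with progesterone against 2.56 to 5.22 without a device, while the skin gland genes are highest in progesterone 2 and next in no-device 2, for example pgla.L at 10617 and 5832 FPKM.

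Genes of the skin's granular glands, which encode the antimicrobial and other peptides that Xenopus secretes onto its skin, differed between libraries of a group. They were picked after their values had been seen. All 8 had positive differences, with medians of 0.88 without progesterone 2 and 3.80 with progesterone 2 alone, and 0 of the 8 lay above every no-device sample in both progesterone samples. The magainin gene magainins.L was at 1985 FPKM in progesterone 2 and 1017 in no-device 2, at 377 and 337 in progesterone 1 and 3 and at 101 and 82.9 in no-device 1 and 3. The xenopsin-family gene xt6l.L was at 3496 and 1385 FPKM in progesterone 2 and no-device 2 and at 117 to 433 in the other progesterone and no-device libraries. Over 8 such genes the share of reads outside smad4.1.S was 0.894% in progesterone 2, 0.262% in no-device 2, 0.0945% and 0.0837% in progesterone 1 and 3 and 0.0186% and 0.0219% in no-device 1 and 3. Among the epidermal genes, krt5.1.L (26.5 FPKM) and cldn4.S (17.6 FPKM) were also highest in progesterone 2, whereas krt53.L, krt6.L and epcam.S were highest in progesterone 3. The part of skin in the epidermal result was not tested.

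Genes of the blastema itself gave small counts on either side. The list of limb bud and blastema mesenchyme had 3 of 57 tested members below every no-device sample (5.26%, against 11.2%) and 5 above (8.77%, against 6.63%). Its medians were −0.08 without progesterone 2 and 0.48 with progesterone 2 alone. The mesenchyme factor prrx1.L, a marker of the limb blastema, was at 3.68, 4.12 and 3.38 FPKM without a device and at 5.52, 4.88 and 4.62 in progesterone 1, 3 and 2. The progesterone libraries were all above the no-device ones, on 6 to 9 reads in each no-device library and 3 in progesterone 2. Its copy prrx1.S overlapped, at 1.55, 3.12 and 4.39 FPKM without a device and at 5.13, 3.51 and 4.38 in progesterone 1, 3 and 2. Among the members below every no-device sample in both progesterone samples were marcksl1.L and pdgfrb.S. The distal limb factors were near the level of single reads: hoxa13.L was at 1.68 to 4.93 FPKM without a device and 1.42 to 3.78 with progesterone, and msx1.L at 0 to 4.93 and 0 to 3.71. The matrix gene col1a1.L was abundant in all but progesterone 2, at 314 to 1127 FPKM without a device, 1776 and 2108 in progesterone 1 and 3 and 85.8 in progesterone 2. Of 56 tested hox genes 7 lay below (12.5%, against 11.2%) and 2 above (3.57%, against 6.63%).

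Growth factor pathways gave 17 of 191 tested members below every no-device sample (8.9%, against 11.2%) and 22 above (11.5%, against 6.63%), with a median of 0.11. The Wnt-binding gene sfrp2.S was at 2.34, 2.45 and 4.59 FPKM without a device and at 10.5, 14.2 and 8.47 in progesterone 1, 3 and 2 (1.49 ± 0.67). The gene model smad4.1.S, named for the shared signal transducer of TGF-beta and BMP, was at 2216, 2249.6 and 1056 FPKM without a device and at 4113, 8194 and 52088 (3.36 ± 0.90, and 1.82 without progesterone 2). It was above every no-device library in each progesterone library, and the silk libraries were at 44785 to 80896 FPKM. This model took 25.6% of the reads in progesterone 2 and 22% to 39.2% in the silk libraries. Whether these reads come from smad4 transcripts was not tested, so the difference belongs to the gene model and not to smad4. Cell cycle genes were above in both samples for 20 of 122 tested members (16.4%, against 6.63%) and below for 7, with medians of 0.22 and 0.23 in the progesterone samples. Just 8 of the 122 averaged 20 reads. Of these, 1 lay above (against 2.86% of all such genes) and 0 below (against 21.6%), with a median of 0.04. The centromere histone gene cenpa.L was at 1.92, 1.85 and 3.52 FPKM and at 5.5, 9.19 and 20.9 (2.01 ± 0.67, and 1.32 without progesterone 2), on 1 to 3 reads in each no-device library, and the proliferation marker mki67.L at 5.63, 5.25 and 7.02 FPKM and at 7.32, 10.1 and 7.72.

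The receptor of the hormone was close to the limit of detection. The progesterone receptor gene pgr.L was at 0.65, 0 and 2.0 FPKM without a device and at 2.7, 1.63 and 1.23 in progesterone 1, 3 and 2, and pgr.S was at 0.58, 2.49 and 3.19 FPKM and at 1.54, 1.65 and 3.74. Both overlapped, on 0 to 12 reads per library, and a difference was not detectable at this depth. Among 88 tested genes of steroid response 7 lay below every no-device sample and 2 above, both shares under the background. The glucocorticoid-induced gene tsc22d3.L was at 125, 233 and 124 FPKM without a device and at 237, 315 and 22.2 in progesterone 1, 3 and 2. It was high in one progesterone sample and low in the other.

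That split between the progesterone samples ran through much of the transcriptome. Over the 3843 genes that averaged at least 20 estimated reads, the median difference from no device was 0.2 in the average of progesterone 1 and 3 and −1.01 in progesterone 2, and 41.7% of the genes had the same sign in both. Pearson's r across these genes, which share the no-device samples and are not independent replicates, was 0.11. These genes held 69.8% and 70.8% of the reads outside smad4.1.S in progesterone 1 and 3, 63.6% to 69.9% without a device and 47.2% in progesterone 2, so more of the reads of progesterone 2 lay in low genes. Of these 3843 genes, 97 were listed at 0 in progesterone 2 and at most 4 in any other progesterone or no-device library.

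**Figure D4:**
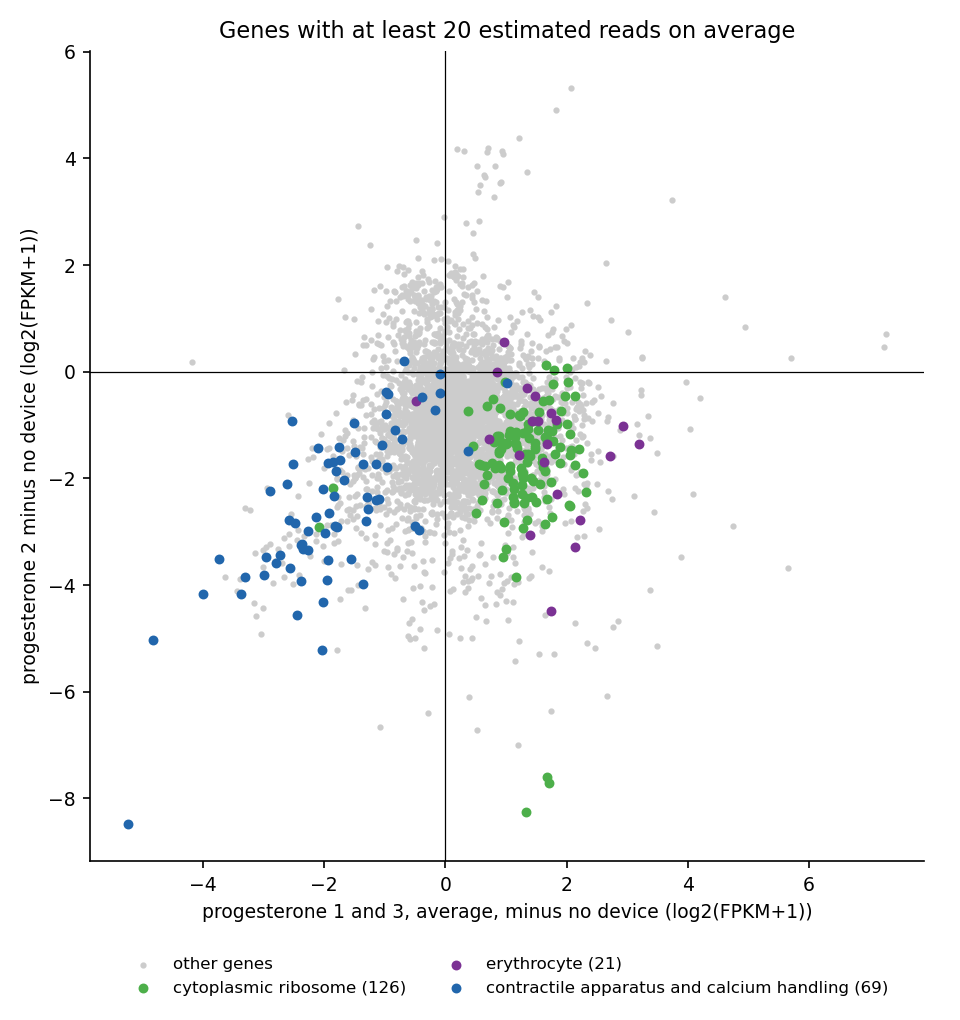
Difference from the no-device mean, in log2(FPKM + 1), for the 3843 genes that averaged at least 20 estimated reads, in the average of progesterone 1 and 3 (horizontal axis) and in progesterone 2 (vertical axis). Most contractile genes (blue) lie low on both axes, whereas most ribosomal (green) and erythrocyte genes (purple) lie high on the first and low on the second, and grey points are other genes.

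Ribosomal protein genes were the clearest case. In the average of progesterone 1 and 3, 129 of 132 tested members were above every no-device sample, against 20.1% of all tested genes, with a median of 1.31. In progesterone 2, 124 members lay below, against 30.2%, with a median of −1.55. The share of reads outside smad4.1.S in this list was 3.48% and 3.78% in progesterone 1 and 3, 0.717% in progesterone 2 and 1.4% to 1.65% without a device. Erythrocyte genes divided in the same way, with medians of 1.40 and −0.90. The alpha globin gene hba1.L was at 27122 and 29408 FPKM in progesterone 1 and 3, at 1204 in progesterone 2 and at 1435, 3479 and 5821 without a device. Fibrous matrix genes had medians of 1.02 and −1.35, antioxidant genes 0.91 and −1.15, and respiratory chain genes 0.36 and −1.62. The eosinophil peroxidase gene epx.L and the gelatinase gene mmp9.S, both picked after their values were seen, divided likewise. The gene epx.L was at 183 and 171 FPKM in progesterone 1 and 3, 4.53 in progesterone 2 and 11.4 to 24.2 without a device. In the same order mmp9.S was at 378 and 382, 12.8 and 50.0 to 132. It does not stand for its list: matrix proteases had medians of 0.14 and −0.47, and the members named above were low in both samples. A direction for these lists in the progesterone group as a whole would rest on the choice of sample.

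The authors' own calls were read against the same division. The authors' deposited table gives 318 genes lower at q under 0.05 (0.748% of 42504) and 312 higher (0.734%), from 3 progesterone libraries taken separately. Of the 318 genes lower in the authors' deposited table, progesterone 2 lay below every no-device library for 247 (77.7%), within their range for 68 and above it for 3. Of the 312 genes higher in the authors' deposited table, progesterone 2 lay above every no-device library for 104 (33.3%), within the range for 96 and below it for 112 (35.9%). Over all tested genes progesterone 2 lay below every no-device library for 30.2% and above for 38.2%. Its shares for the higher genes were thus near those over all genes. The average of progesterone 1 and 3 lay outside on the called side for 292 of the lower and 312 of the higher genes. All 3 progesterone libraries, progesterone 2 included, entered the authors' test. The counts in this paragraph are therefore a description and no independent check of the calls. The median difference of the higher genes was 1.94 in the average of progesterone 1 and 3 and −0.05 in progesterone 2, and that of the lower genes was −1.79 and −1.88. Where the estimated reads averaged at least 20, progesterone 2 lay on the called side for 95 of 97 lower genes and for 20 of 139 higher genes, and on the opposite side for 0 and 76. The median difference of progesterone 2 over all genes with that many reads was −1.01, which by itself favours the lower side in these counts.

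**Figure D5:**
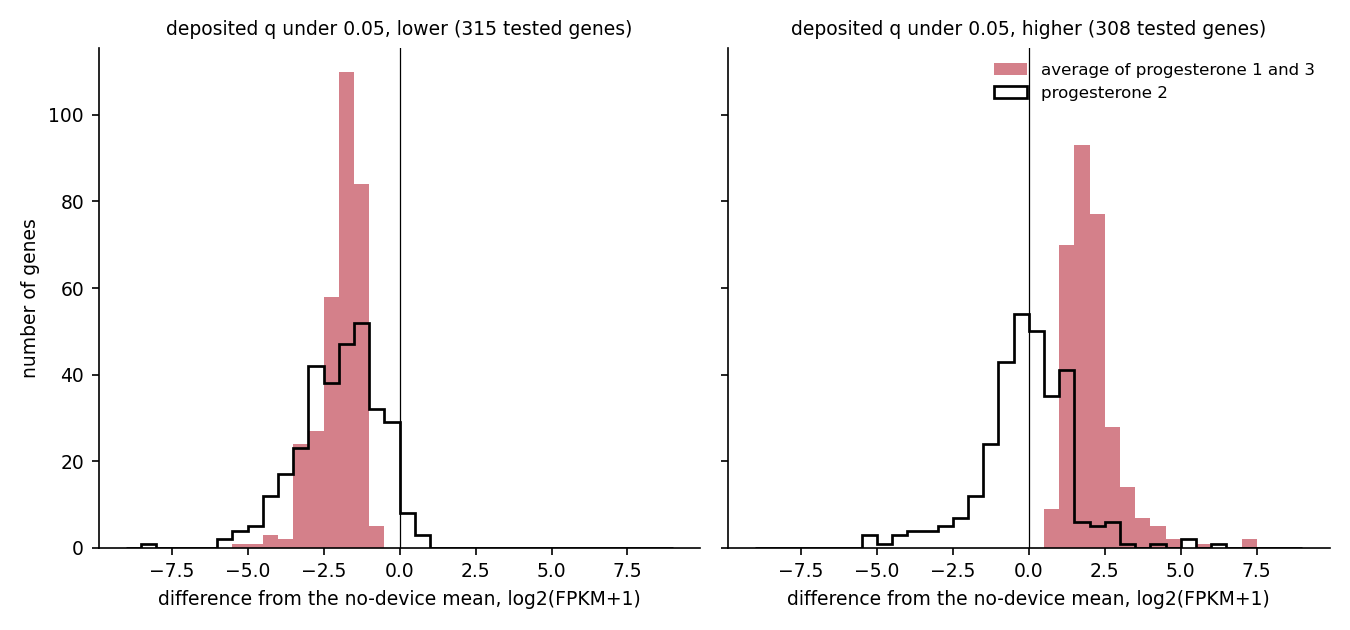
Histograms of the difference from the no-device mean, in log2(FPKM + 1), for genes with q under 0.05 in the authors' deposited table, lower on the left and higher on the right, restricted to those tested here. Filled bars are the average of progesterone 1 and 3 and the outlined histogram is progesterone 2. On the left both have negative medians (−1.79 and −1.88), and on the right the outlined histogram is centred near 0 (median −0.05).

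Named genes show both patterns. The authors' deposited table gives q = 4.63e-06 for a model of klhl40.S, 2.75e-05 for slc6a8.L (LOC108704805), 9.21e-05 for rrad.L and 9.21e-05 for vegfa.S, all low in every progesterone library. On the higher side, the authors' deposited table gives q = 0.000282 for eif3f.S, a translation initiation factor subunit, which was at 100.2 and 87.2 FPKM in progesterone 1 and 3, at 14.8 in progesterone 2 and at 14.4 to 19.6 without a device. The blood group gene rhd.S, with q = 0.0004 in the authors' deposited table, was at 80.0 and 84.2 FPKM in progesterone 1 and 3, listed at 0 in progesterone 2 and at 2.05 to 7.54 without a device. The dynein adaptor gene bicd2.L, with q = 6.78e-05 in the authors' deposited table, was an exception, at 22.1, 18.6 and 18.4 FPKM in progesterone 1, 3 and 2 and at 9.14, 3.83 and 7.19 without a device (1.47 ± 0.62). Of the 169 contractile genes 21 were lower and 0 higher at q under 0.05 in the authors' deposited table, against 0.748% and 0.734% of all genes. In progesterone 2, 19 of these 21 were below every no-device library, against 77.7% of all genes lower in the authors' deposited table. Progesterone 2 entered the authors' test, so this count is a description. Lower calls were not particular to muscle: the neuron list had 10 of 72 members lower and 0 higher in the authors' deposited table. The channel and transmitter list had 8 of 357 lower and 1 higher. Ribosomal genes had 0 lower and 10 higher there.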

How the data were processed

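Library values, group means and test results were read from 1 table of the series. The values per library are taken as FPKM made by the authors, since value times gene length sums to nearly the same total in each library. Group means in the deposited table are a signal, named average CPM per the file headers. The deposited p-values, q-values and log2 fold changes are those of the authors' own test, whose kind is not stated. Among the tools, the submitters' processing notes list STAR, RSEM, edgeR, FastQC and Trimmomatic, without versions. Per the labels' protocols, ribosomal RNA was depleted with a human, mouse and rat kit. Neither the genome build nor the strand setting is given in the sources used here.

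The tests set for read counts were not used because the file holds FPKM. On log2(FPKM + 1), differences were fitted with limma 3.58.1 (R 4.3.3) on 8 blastema samples (2 progesterone, 3 no device, 3 silk, which share 1 estimate of spread), with no block, for genes that reached FPKM 1 in 3 or more samples. P-values were adjusted by Benjamini-Hochberg. Fold changes on this scale understate low genes. Gene lengths and reads were estimated from the FPKM and the group means. Only 64.3% to 72.5% of low values per library came within 0.1 of whole reads, too few for a count test. Library pairs were compared gene by gene with chi-square tests on those reads. The fit was tested on simulated data. Of 11055 genes with LOC names, 3551 have a symbol in RefSeq (Xenopus_laevis_v10.1), used for names only.

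The libraries, the 33 lists and the rules were chosen with earlier results of these data known. Named genes were the 6 most different members of a list outside the no-device range with a group mean of at least 10 FPKM, the 15 smallest p in each direction, the 10 smallest authors' q in each direction and blastema, hox and receptor genes; the text uses part of them. The skin gland genes, myod1, myog, pax7, mki67, vegfa.L, aplnr.S, tsc22d3.L, rpl35.L, the globin, collagen, granulocyte and mmp9 genes were named after their values were seen. Same-numbered libraries did not deviate together (correlations of 0.05, 0.01 and −0.08).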

Additional observations from a re-analysis of the deposited data

How the results depend on the processing

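The count of genes past an adjusted p under 0.05 in limma was 0 higher and 0 lower, with 1378 at an unadjusted p under 0.05. It was 0 higher under each of 18 other settings. It was 4 lower with the 3 progesterone libraries taken separately, all 4 genes without a name and listed at 0 in every progesterone library, 2 lower with voom on estimated reads (klhl40.S and xirp1.S), and 1 lower (klhl40.S, adjusted p = 0.0499) where genes had to average 20 estimated reads, which was chosen after seeing the data. Leaving out 1 sample gave 0 to 0 genes, the fit with the replicate block gave 0, and without progesterone 2 it was 0 also under the read filter. When a fit leaves 1 progesterone sample, that sample is assumed to vary like the other groups. A set of 79 gene models, which holds every gene printed with a difference, kept its signs under each setting in which each was tested. Most of these genes had both progesterone samples outside the no-device range. Leaving out a sample could therefore not change their sign, and the kept signs are no support for the differences. Of the genes printed with a difference, itga7.L, kdr.L, cenpa.L and smad4.1.S moved by over 1.5 times without progesterone 2, and their values are given with them. List medians moved by more than 1 SD between samples in 73 comparisons with another setting and by less in 265. In progesterone 2 a gene of 1 kb is not seen below 5.6 FPKM, the worth of 1 read.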

Other observations

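Among the immune lists not described above, inflammatory mediator, lymphocyte and interferon-induced genes had a share above the background on at least 1 side. The myeloid list did not. These counts are small, and no list was tested as a set. Of 72 tested genes of inflammatory mediators 13 (18.1%) lay below every no-device sample in both progesterone samples, against 11.2% of all tested genes, and 2 lay above. Of 45 lymphocyte genes 2 lay below and 6 (13.3%) above, against 6.63%. Of 54 myeloid genes 1 lay below and 3 above, with medians of 0.34 without progesterone 2 and −0.54 with progesterone 2 alone. Interferon-induced genes had 5 of 44 on each side (11.4%, against 11.2% below and 6.63% above). Cartilage and bone genes had 5 of 47 below and 4 above, and immediate early genes 5 of 65 below and 2 above.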
